A study of Homo sapiens with 39 samples.

Results

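The 10 genes described here make and break down the polyamines putrescine, spermidine and spermine, or set the activity of the enzymes that do. They are ODC1, AMD1, SRM, SMS, SAT1, SMOX, PAOX, OAZ1, OAZ2 and AZIN1, taken by symbol from the 63187 genes of the deposited count table, and all 10 had enough counts to be tested in both experiments. RNA was sequenced from C4-2B cells, a castration-resistant prostate cancer line that grows without testicular androgen, and all groups are of this 1 line. In the drug panel (21 libraries, 7 groups) treatment lasted 5 days, and the groups were the vehicle DMSO, olaparib at 1 µM, abiraterone at 5 µM, both of these together, talazoparib at 10 nM, enzalutamide at 20 µM, and both of these together. In the time course (18 libraries, 6 groups) they received DMSO or olaparib at 1 or 5 µM for 1 or 5 days. Abiraterone blocks androgen synthesis and enzalutamide blocks androgen signalling (together ARPi), and olaparib and talazoparib inhibit poly(ADP-ribose) polymerase (PARPi). Each group has 3 libraries, and nothing in the labels says whether these came from separate cultures, so the p-values measure the spread between these libraries, which may be technical.

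Polyamines are small positively charged molecules that bind RNA, DNA and ribosomes, and the prostate is known for making and secreting large amounts of them. Ornithine decarboxylase (ODC1) makes putrescine, AMD1 supplies the decarboxylated S-adenosylmethionine that donates the aminopropyl group, spermidine synthase (SRM) makes spermidine and spermine synthase (SMS) makes spermine. SAT1 acetylates spermidine and spermine for export or for oxidation by PAOX, and SMOX oxidizes spermine directly. Antizymes (OAZ1, OAZ2) bind ODC1 and send it to the proteasome, and the antizyme inhibitor AZIN1 takes the antizymes away from ODC1. Several of these proteins are controlled through translation and protein turnover, which RNA counts do not show.

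Total counts ran from 26932205 to 49833473 in the panel and from 34214001 to 44893664 in the time course. The 9 luminal prostate and epithelial markers examined, among them KLK3, KLK2 and KRT8, all passed 1 CPM (the gene's count relative to the total count of its library) in both experiments and summed to 2756 to 5502 CPM in each library. The 3 basal genes summed to at most 1.94 CPM, with KRT5 and TP63 at or under 1 CPM in every library. The 3 neuroendocrine genes summed to at most 2.72 CPM, with CHGA at or under 1 CPM in every library, and the leukocyte gene PTPRC reached at most 1.17 CPM. The 3 fibroblast genes summed to 11.9 to 23.5 CPM, from COL1A1 and PDGFRB, with COL1A2 at or under 1 CPM. Some of these genes differed between the panel groups. COL1A1 averaged 11.8 CPM with DMSO, 15.6 and 14 with olaparib and talazoparib, and 17.9 to 21.4 with the ARPi and combinations. PTPRC averaged 0.0253 CPM with DMSO and 0.364 to 1 with the ARPi and combinations. KRT14, a basal gene, averaged 0.464 CPM with DMSO and 1.15 and 1.04 with olaparib and talazoparib. These CPM and all levels below are after TMM scaling, and they are relative to the other RNA counted. A change in a gene and a change in all other RNA of the cell therefore cannot be told apart.

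ODC1 moved with SRM and SMS with SAT1 in much of what follows, and the 250 bases before their RefSeq start sites (GRCh38.p14) are shown so that the genes of each pair can be set side by side. The capitals mark, on either strand, CACGTG (the E-box bound by MYC and related factors), GGGCGG (the GC box) and AGAACA (the half-site of the androgen response element), and the matches did not overlap.
ODC1 (chr2:10448328-10448577, minus strand): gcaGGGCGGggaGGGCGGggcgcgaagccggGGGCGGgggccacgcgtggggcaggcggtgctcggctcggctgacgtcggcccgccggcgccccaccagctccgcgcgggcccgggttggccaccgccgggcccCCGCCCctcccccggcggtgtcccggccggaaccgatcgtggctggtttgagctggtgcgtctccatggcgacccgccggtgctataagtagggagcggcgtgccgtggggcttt
SRM (chr1:11060019-11060268, minus strand): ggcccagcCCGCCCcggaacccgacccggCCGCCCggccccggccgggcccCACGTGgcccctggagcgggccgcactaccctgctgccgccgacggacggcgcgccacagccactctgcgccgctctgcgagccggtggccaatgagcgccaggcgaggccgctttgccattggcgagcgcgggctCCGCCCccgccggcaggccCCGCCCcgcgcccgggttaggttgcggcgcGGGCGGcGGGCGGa
SMS (chrX:21940459-21940708, plus strand): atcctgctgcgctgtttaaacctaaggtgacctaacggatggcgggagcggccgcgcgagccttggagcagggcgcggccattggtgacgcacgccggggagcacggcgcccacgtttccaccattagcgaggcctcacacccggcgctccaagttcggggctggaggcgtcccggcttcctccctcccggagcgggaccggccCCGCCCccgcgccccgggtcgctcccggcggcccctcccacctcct
SAT1 (chrX:23782923-23783172, plus strand): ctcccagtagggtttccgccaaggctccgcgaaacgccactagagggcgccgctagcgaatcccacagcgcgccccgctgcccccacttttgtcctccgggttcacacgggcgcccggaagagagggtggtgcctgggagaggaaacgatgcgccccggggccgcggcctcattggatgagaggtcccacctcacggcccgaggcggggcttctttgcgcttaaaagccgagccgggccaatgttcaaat
The SRM window held 1 CACGTG and 6 GGGCGG, the ODC1 window 4 GGGCGG, the SMS window 1 GGGCGG and the SAT1 window none of the 3 motifs. RefSeq lists a second ODC1 start site further into the gene, and a stretch of 46 bases there holds 2 CACGTG separated by 28 bases. It lies in intron 1 of the transcript whose first exon is chr2:10448121-10448327, and 12 to 16 of its bases fall in exons of other ODC1 transcripts.
ODC1 intron 1 (chr2:10447999-10448044, minus strand): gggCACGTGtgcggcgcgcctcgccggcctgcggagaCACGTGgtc
Of all 34943 windows of 250 bases, 6.32% held CACGTG, 42.5% GGGCGG and 12.4% AGAACA. RefSeq windows matched 7 of the 10 members by symbol, and none of these windows held AGAACA. The match of letters is a description only. SMOX, PAOX and AZIN1 had no window in the table.

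Per kilobase of annotated exon, which allows genes to be compared, ODC1 was the most abundant of the 10 in the DMSO group of the panel at 238 ± 6.23 CPM per kb (SD, n = 3). OAZ1 followed at 135 ± 3.03 and SMS at 128 ± 2.67 CPM per kb. AMD1 (74.8 ± 0.823), SRM (70.4 ± 2.72) and SAT1 (64 ± 2.43) lay close together. AZIN1 stood at 30.7 ± 0.943 and OAZ2 at 11.7 ± 0.776 CPM per kb. Both oxidases were near the bottom of detection, with PAOX at 0.842 ± 0.17 and SMOX at 0.501 ± 0.197 CPM per kb. Over all 39 libraries PAOX had 40 to 91 counts and SMOX 42 to 156. PAOX overlaps on the same strand with ENSG00000254536, a gene without a symbol that received 186% of the PAOX counts, so that the division of reads between them is uncertain. For the other members, overlapping genes on the same or the opposite strand took at most 0.407% and named pseudogene copies at most 0.012% of the member's counts.

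Across the panel the members moved in most comparisons, as did a large part of all genes, so their counts are read against that background. With abiraterone 2 members were higher and 6 lower than DMSO (all genes tested, 25.8% higher and 27.1% lower, the threshold being 0.05 for the adjusted p of edgeR). That total of 8 became 5 without replicate B of DMSO or replicate B or C of abiraterone. Enzalutamide gave 3 higher and 5 lower (27.0% and 26.3% of all genes). Olaparib gave 4 higher and 1 lower (19.6% and 16.0%), and talazoparib 4 higher and 2 lower (18.4% and 15.4%). Abiraterone plus olaparib gave 2 higher and 7 lower (31.1% of all genes in each direction), and enzalutamide plus talazoparib 2 higher and 6 lower (31.2% and 31.3%). Both ARPi and both combinations thus had more members lower than the share of all genes, and 10 genes are too few to say more than that. The median log2 fold change of the members was -0.088 with abiraterone, 0.087 with olaparib and -0.14 with both, and -0.28 with enzalutamide, 0.025 with talazoparib and -0.31 with both, and the median of all genes lay within 0.02 of 0 in these 6 comparisons. These 6 comparisons share the same 3 DMSO libraries.

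**Figure D1:**
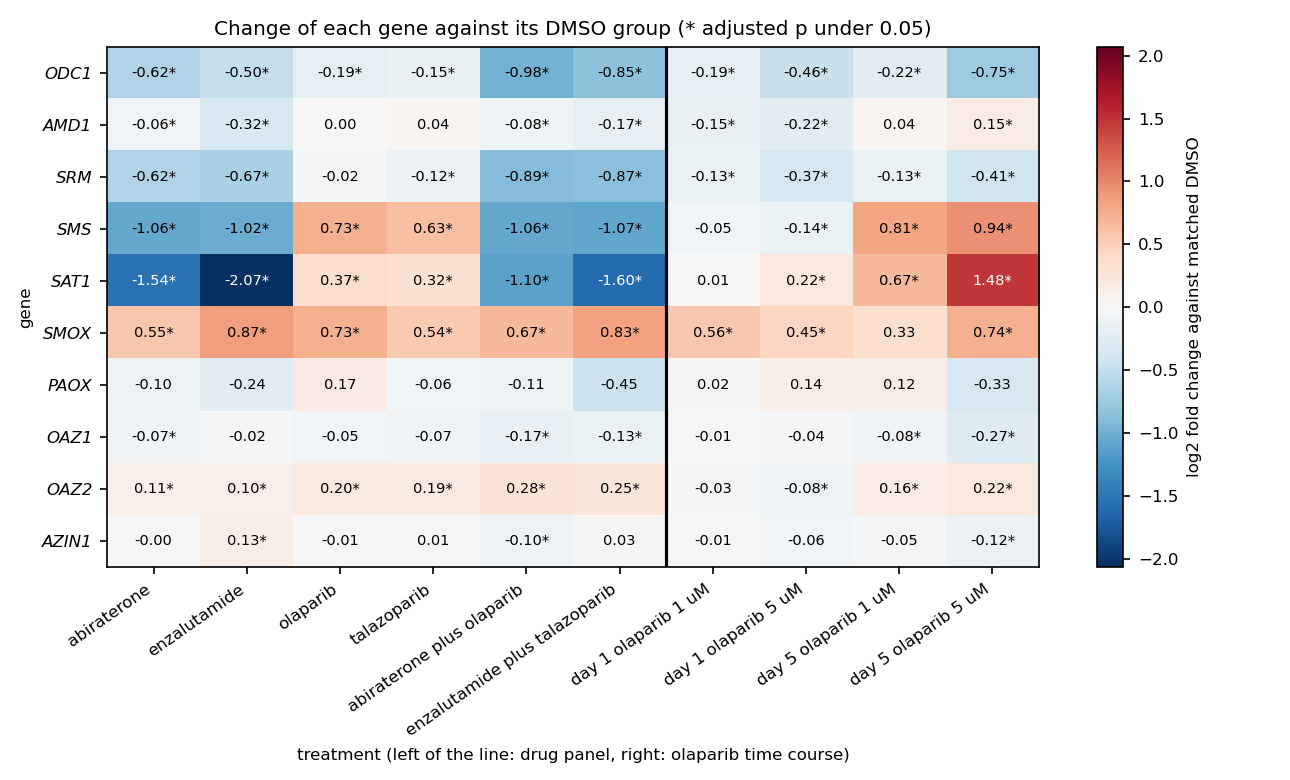
Log2 fold change of each of the 10 genes (rows) against its matched DMSO group for the 6 panel treatments and the 4 time course treatments (columns), with the value in each cell and an asterisk at an adjusted p under 0.05. SAT1 and SMS are blue with ARPi and red with PARPi in the panel and at day 5 of the time course, while ODC1 is blue in every column.

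The rate-limiting enzyme of the pathway, ODC1 (ENSG00000115758, chr2:10439968-10448327), was lower in each of the 6 treatments. It stood at 763, 790 and 804 CPM in the DMSO libraries of the panel, 515, 498 and 515 with abiraterone and 553, 568 and 550 with enzalutamide. With olaparib it was 699, 684 and 683 CPM and with talazoparib 713, 700 and 718. With abiraterone plus olaparib it was 406, 396 and 394 CPM and with enzalutamide plus talazoparib 447, 430 and 428. No library of any treated group reached the lowest DMSO library, and the combinations lay below both of their single agents. The log2 fold change was -0.62 ± 0.024 (SE) for abiraterone, -0.50 ± 0.024 for enzalutamide, -0.19 ± 0.024 for olaparib and -0.15 ± 0.024 for talazoparib. With the combinations it was -0.98 ± 0.024 (adjusted p = 1.00e-27) and -0.85 ± 0.024 (adjusted p = 4.72e-26), or 1.97-fold and 1.81-fold lower than DMSO. The step from the ARPi to its combination was -0.35 for abiraterone and -0.36 for enzalutamide, both past the threshold.

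SRM (ENSG00000116649, chr1:11054584-11060020), the enzyme of the spermidine step, followed ODC1 with ARPi but hardly moved with PARPi. Its levels were 129, 132 and 139 CPM with DMSO, 88.6, 88.6 and 83.4 with abiraterone and 79.6, 85.9 and 85 with enzalutamide. They were 135, 130 and 130 CPM with olaparib and 128, 120 and 121 with talazoparib, which overlap or lie just under the DMSO libraries. With abiraterone plus olaparib they were 70.3, 68.7 and 77.5 CPM and with enzalutamide plus talazoparib 74.4, 72.9 and 71.7. The ARPi lowered SRM by log2 fold changes of -0.62 ± 0.039 (abiraterone) and -0.67 ± 0.039 (enzalutamide), and the combinations by -0.89 ± 0.04 and -0.87 ± 0.039. With olaparib the change was -0.019 (95% interval -0.10 to 0.06, adjusted p = 0.752). With talazoparib SRM fell by 0.12 ± 0.038 on the log2 scale (adjusted p = 0.0125), a call that was lost without replicate C of the DMSO group, where the value was -0.09. MYC, a transcription factor known to drive ODC1 and SRM, was at 139 CPM on average with DMSO, 105 and 98 with the ARPi abiraterone and enzalutamide, and 172 and 182 with the PARPi olaparib and talazoparib, and its part in these levels was not tested. With the combinations MYC was at 115 and 110 CPM. In the time course it stood at 136, 131 and 125 CPM with DMSO, 1 and 5 µM olaparib at day 1, and at 152, 182 and 230 CPM at day 5.

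SMS (ENSG00000102172, chrX:21940709-21994837), the enzyme that makes spermine, went down with ARPi and up with PARPi. The DMSO libraries stood at 272, 277 and 266 CPM. With abiraterone the 3 libraries were at 130, 129 and 133 CPM and with enzalutamide at 132, 135 and 135. With olaparib they were at 456, 453 and 444 CPM and with talazoparib at 411, 418 and 431. The 2 drug classes thus lay on opposite sides of DMSO with no overlap between libraries. The combinations gave 131, 132 and 127 CPM (abiraterone plus olaparib) and 132, 128 and 129 CPM (enzalutamide plus talazoparib), within the range of the ARPi alone or at most 4 CPM under it. SMS was 2.08-fold lower with abiraterone (log2 -1.06 ± 0.026, adjusted p = 1.75e-27) and 2.02-fold lower with enzalutamide (-1.02 ± 0.026). It was 1.66-fold higher with olaparib (0.73 ± 0.025, adjusted p = 2.50e-21) and 1.54-fold higher with talazoparib (0.63 ± 0.025). Adding olaparib to abiraterone changed it by -0.0048 (95% interval -0.06 to 0.05) and adding talazoparib to enzalutamide by -0.048 (-0.10 to 0.01), and neither passed the threshold (adjusted p = 0.922 and 0.165).

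The acetyltransferase SAT1 (ENSG00000130066, chrX:23783173-23786210), which marks spermidine and spermine for export and breakdown, had the widest range of the 10 genes, 2.44 log2 units between its highest and lowest panel groups against 1.80 for SMS and 0.98 for ODC1. It stood at 164, 160 and 152 CPM with DMSO. Abiraterone brought it to 56.6, 53.2 and 54.5 CPM and enzalutamide to 38.5, 37.2 and 37.6. Olaparib gave 202, 210 and 202 CPM and talazoparib 193, 201 and 200. The combinations stood at 74.1, 78.7 and 68.6 CPM (abiraterone plus olaparib) and 52.7, 52.7 and 51.2 CPM (enzalutamide plus talazoparib), each above its ARPi alone and far below DMSO. SAT1 was 2.9-fold lower with abiraterone (log2 -1.54 ± 0.038) and 4.21-fold lower with enzalutamide (-2.07 ± 0.039, adjusted p = 2.81e-31). The direct comparison of enzalutamide with abiraterone gave -0.54 ± 0.041 (adjusted p = 3.12e-12). With PARPi it rose by 0.37 ± 0.035 (olaparib) and 0.32 ± 0.035 (talazoparib), and these 2 did not differ past the threshold (talazoparib against olaparib -0.045, 95% interval -0.12 to 0.03). In contrast to SMS, it rose when the PARPi was added to the ARPi, by 0.43 ± 0.04 with olaparib on abiraterone and 0.47 ± 0.041 with talazoparib on enzalutamide.

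**Figure D2:**
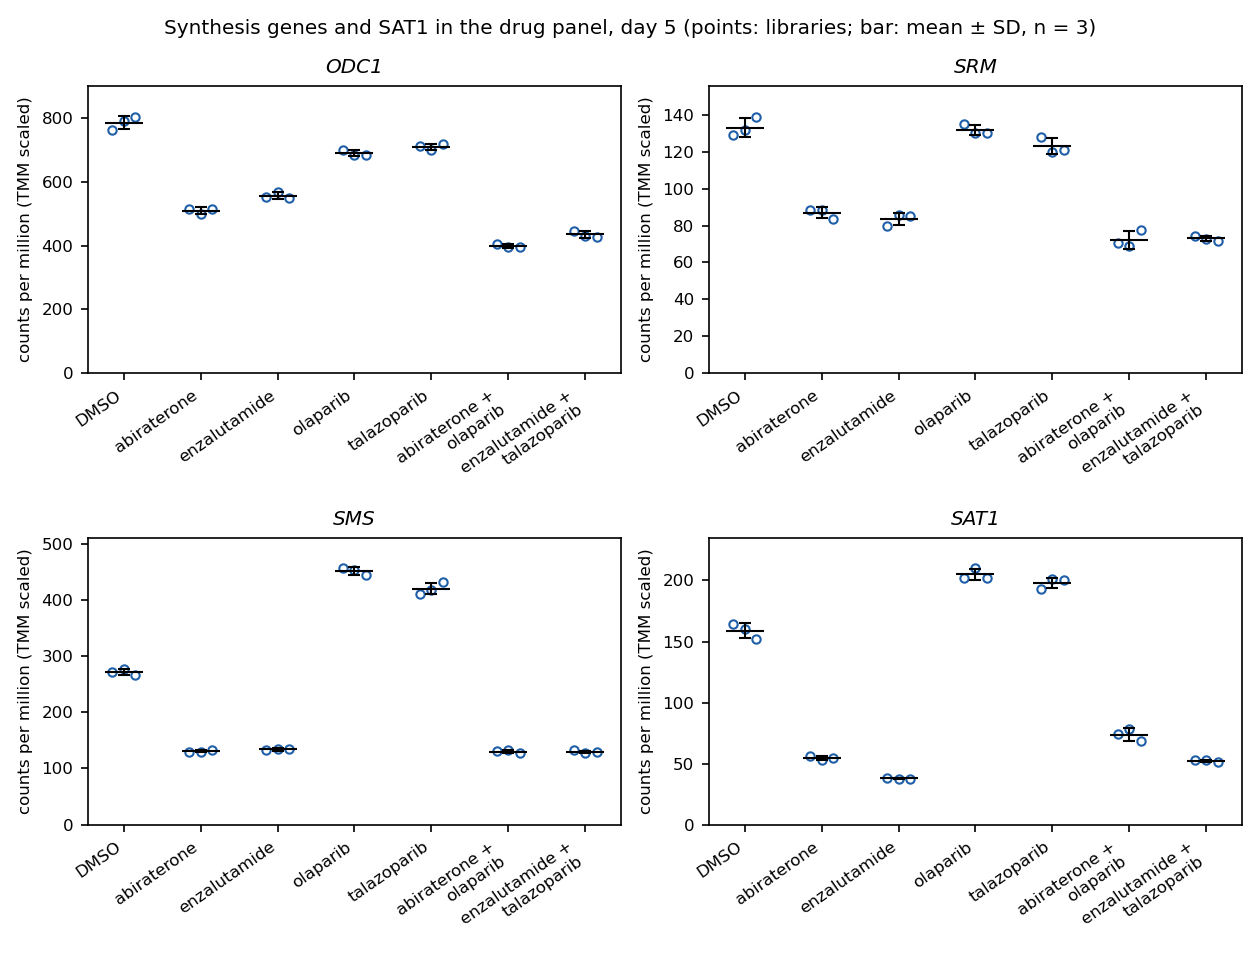
CPM after TMM scaling (vertical axes, from 0) of ODC1, SRM, SMS and SAT1 in the 7 panel groups; open circles are libraries and black bars the mean with SD (n = 3). SMS returns to the level of the ARPi in both combinations, near 130 CPM, whereas SAT1 stands between the ARPi and DMSO.

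The other aminopropyl gene, AMD1 (ENSG00000123505, chr6:110874770-110898879), changed little. Its group means ran from 611 CPM with enzalutamide to 781 with talazoparib. Enzalutamide libraries were at 597, 630 and 608 CPM against 772, 759 and 756 with DMSO, a log2 fold change of -0.32 ± 0.024, and enzalutamide plus talazoparib gave -0.17 ± 0.024. Abiraterone gave -0.058 ± 0.024 (adjusted p = 0.0379), a call that most of the alternatives tried did not keep and that turned to 0.01 under scaling by total counts. Neither PARPi moved it past the threshold.

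Of the 2 spermine and polyamine oxidases, SMOX was higher than DMSO in each of the 6 treatments, by log2 fold changes of 0.54 to 0.87, but at very low levels. SMOX (ENSG00000088826, chr20:4120980-4187747) stood at 2.14, 1.22 and 1.06 CPM with DMSO and 2.47, 2.38 and 3.09 CPM with enzalutamide. The highest DMSO library lay within the range of abiraterone, talazoparib and abiraterone plus olaparib, and below all libraries of the other 3 treatments. The enzalutamide change was 0.87 ± 0.2 (adjusted p = 5.21e-04) and that with olaparib 0.73 ± 0.21 (adjusted p = 0.00534). The calls with abiraterone, olaparib, talazoparib and abiraterone plus olaparib were each lost without replicate C of the DMSO group, where the changes were 0.35, 0.53, 0.34 and 0.47. PAOX (ENSG00000148832, chr10:133379261-133391694) passed the threshold with none of the 6 treatments by edgeR, with group means of 1.39 to 2.12 CPM. Its largest change, with enzalutamide plus talazoparib, was -0.45 (95% interval -0.86 to -0.04, unadjusted p = 0.0328, adjusted p = 0.0522 by edgeR), which passed without replicate C of either group at -0.61 and -0.54.

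The regulators of ODC1 protein moved within narrow bounds. OAZ2 (ENSG00000180304, chr15:64687573-64703281) rose in each of the 6 treatments, by log2 fold changes of 0.099 to 0.28, and the combinations gave the largest, 0.28 ± 0.037 and 0.25 ± 0.036. Its DMSO libraries stood at 94.7, 90.6 and 83 CPM and those with abiraterone plus olaparib at 108, 107 and 109. The calls with abiraterone and enzalutamide alone were lost without replicate C of the DMSO group, at 0.06 and 0.04. OAZ1 (ENSG00000104904, chr19:2269509-2273490), the most abundant antizyme gene here, fell in both combinations, by 0.17 ± 0.03 with abiraterone and olaparib and 0.13 ± 0.03 with enzalutamide and talazoparib. Its change with abiraterone, -0.072 ± 0.03 (adjusted p = 0.0462), was lost in most of the alternatives. AZIN1 (ENSG00000155096, chr8:102826111-102893864) rose by 0.13 ± 0.028 with enzalutamide and fell by 0.10 ± 0.028 with abiraterone plus olaparib, and the other treatments did not move it past the threshold. Under scaling by total counts AZIN1 stood at 0.07 with abiraterone, against -0.0022, and OAZ1 at -0.00.

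Whether a combination did more or less than its agents added on the log2 scale was asked directly. For abiraterone and olaparib 3 members departed from the sum (12.8% of all genes did), and for enzalutamide and talazoparib 4 did (12.6%), or 2 without replicate A of enzalutamide. SMS departed most, by -0.74 ± 0.037 (adjusted p = 7.19e-16) and -0.68 ± 0.037 (adjusted p = 2.69e-15). The sum of the single agents would have put it at -0.33 and -0.39 against DMSO, whereas it was found at -1.06 and -1.07. ODC1 departed by -0.16 ± 0.034 and -0.21 ± 0.034. SRM departed by -0.25 ± 0.056 with abiraterone and olaparib, and by -0.074 (95% interval -0.19 to 0.04) with enzalutamide and talazoparib, which did not pass. SAT1 stayed near the sum, with departures of 0.067 (95% interval -0.04 to 0.17, adjusted p = 0.468) and 0.15 (0.04 to 0.26, adjusted p = 0.0637). The second of these passed the threshold by DESeq2 at 0.16 and under either other scaling at 0.16 and 0.18. AMD1 departed by 0.12 ± 0.034 and AZIN1 by -0.12 ± 0.04 with enzalutamide and talazoparib, and the AZIN1 call (adjusted p = 0.0499) was lost in most alternatives.

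**Figure D3:**
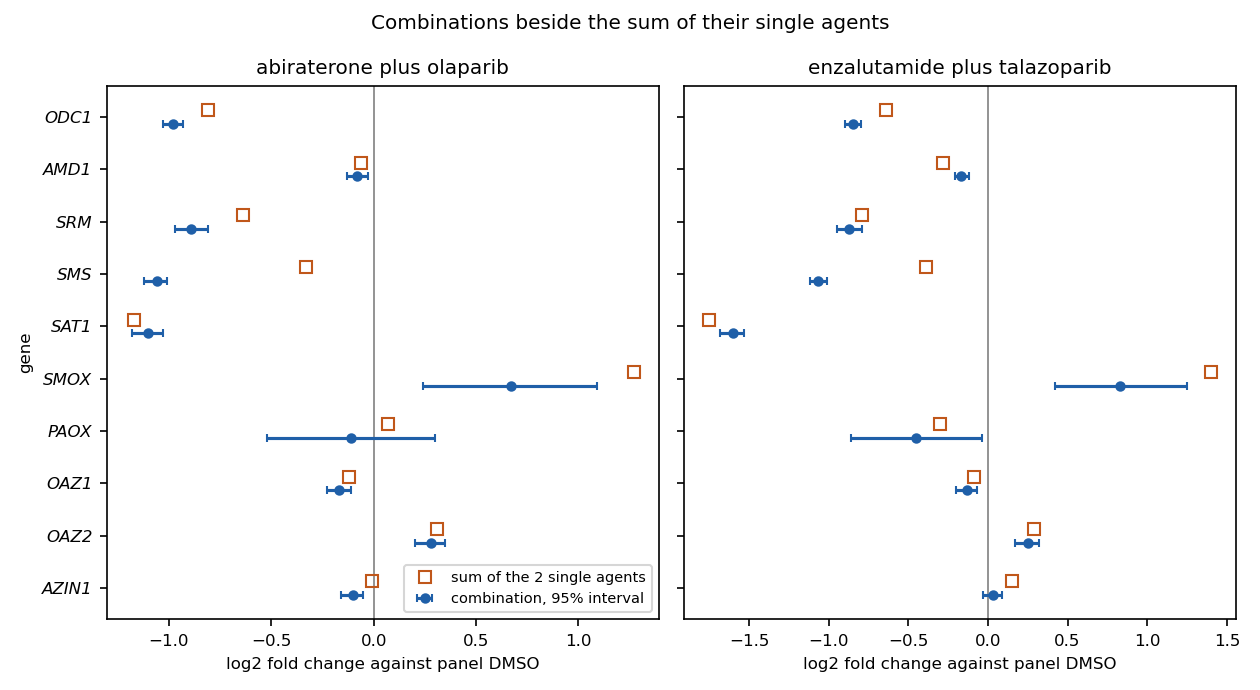
Log2 fold change against panel DMSO (horizontal axis) of each gene with the combination (filled circles, 95% interval) and the sum of the 2 single-agent values (open squares), for both combinations. The SMS circles lie near -1.06 while the squares lie at -0.33 and -0.39, and the SAT1 circles lie on or close to their squares.

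The direct comparisons within a class gave fewer calls. Enzalutamide against abiraterone moved 4 members past the threshold (19.8% of all genes), SAT1 as above, AMD1 at -0.26 ± 0.024, and ODC1 and AZIN1 both at 0.13. Talazoparib against olaparib moved 1 (8.36% of all genes), SMS at -0.10 ± 0.025. Adding olaparib to abiraterone moved 6 members (29.2% of all genes) and adding talazoparib to enzalutamide 7 (34.4%), with ODC1, SRM, OAZ1 and AZIN1 lower and SAT1 and OAZ2 higher in both and AMD1 higher, at 0.15, in the latter.

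The time course asked how these levels depend on olaparib dose and time. At day 1, olaparib at 1 µM left 1 member higher and 3 lower than DMSO (6.30% and 9.52% of all genes), and 5 µM left 2 higher and 5 lower (21.6% and 23.4%). With 1 µM at day 5 it was 3 higher and 3 lower (23.4% and 22.9%), and 5 µM 5 higher and 4 lower (34.4% and 33.9%). The median log2 fold change of the members in these 4 comparisons was -0.019, -0.071, 0.08 and 0.014, and that of all genes lay within 0.015 of 0.

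ODC1 was lower at both doses on both days, and more so at the higher dose. At day 1 its libraries stood at 828, 784 and 795 CPM with DMSO, 705, 709 and 700 with 1 µM and 585, 583 and 582 with 5 µM. At day 5 they stood at 812, 821 and 810 CPM with DMSO, 705, 694 and 702 with 1 µM and 470, 485 and 495 with 5 µM. The 3 levels did not overlap on either day. The log2 fold changes were -0.19 ± 0.019 and -0.46 ± 0.019 at day 1 and -0.22 ± 0.019 and -0.75 ± 0.019 at day 5, the last a 1.69-fold lower level. SRM fell alongside it by -0.13 and -0.37 (each ± 0.026) at day 1 and by -0.13 and -0.41 (each ± 0.026) at day 5. From 159 CPM with DMSO at day 1, its group means went to 145 and 123 with the 2 doses, and from 147 CPM at day 5 to 135 and 111.

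SMS and SAT1, by contrast, rose mainly at day 5. At day 1 SMS stood at 240, 232 and 233 CPM with DMSO, 226, 227 and 228 with 1 µM and 214, 207 and 218 with 5 µM. The 5 µM libraries lay under all DMSO libraries, a log2 fold change of -0.14 ± 0.021 (adjusted p = 8.96e-07), and 1 µM gave -0.049 (adjusted p = 0.117). At day 5 the libraries stood at 248, 247 and 244 CPM with DMSO, 438, 428 and 433 with 1 µM and 465, 476 and 475 with 5 µM. SMS was then 1.76-fold higher with 1 µM (log2 0.81 ± 0.021) and 1.92-fold higher with 5 µM (0.94 ± 0.021), so that its direction at 5 µM was opposite on the 2 days. The step from 1 to 5 µM at day 5 was 0.13 ± 0.02, small beside the step from DMSO to 1 µM.

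SAT1 rose with dose as well. Its day 1 libraries stood at 71, 65.4 and 68.8 CPM with DMSO, 70.9, 66.8 and 69.2 with 1 µM and 80.5, 79.8 and 79.2 with 5 µM. Its day 5 libraries stood at 97.1, 97.5 and 92.9 CPM with DMSO, 152, 149 and 156 with 1 µM and 261, 267 and 271 with 5 µM. At day 1 the DMSO and 1 µM libraries overlapped and those with 5 µM lay above both, and at day 5 the 3 levels were apart. The log2 fold change was 0.012 (95% interval -0.05 to 0.08) and 0.22 ± 0.031 at day 1, and 0.67 ± 0.03 and 1.48 ± 0.029 (adjusted p = 2.56e-32) at day 5, where 5 µM gave a 2.78-fold higher level. The step from 1 to 5 µM at day 5 was 0.81 ± 0.029.

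**Figure D4:**
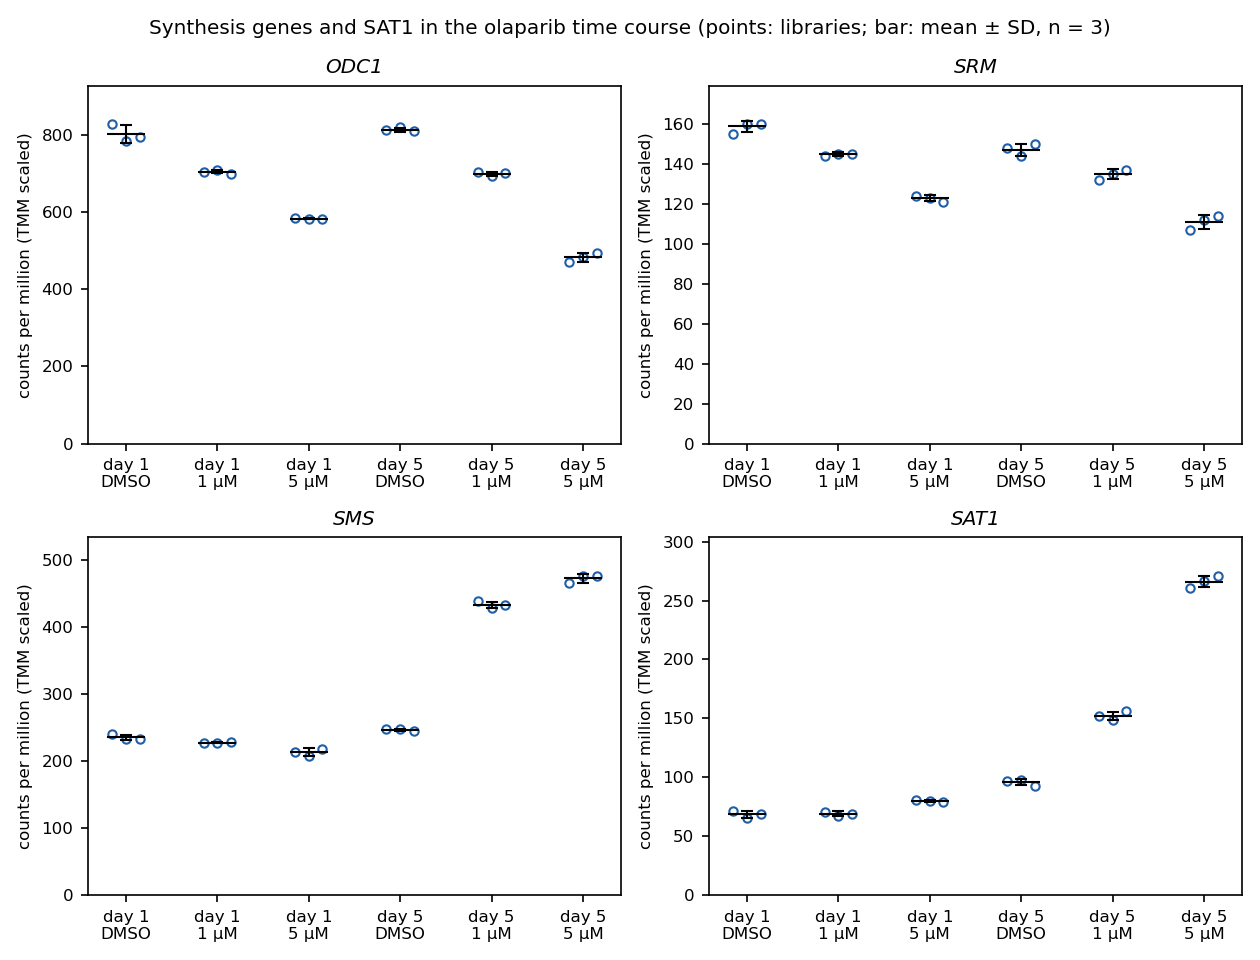
CPM after TMM scaling (vertical axes, from 0) of ODC1, SRM, SMS and SAT1 in the 6 time course groups; open circles are libraries and black bars the mean with SD (n = 3). ODC1 and SRM step down with dose on both days, SMS libraries lie between 207 and 248 CPM in the day 1 groups and day 5 DMSO, lowest with 5 µM at day 1, and between 428 and 476 CPM with olaparib at day 5, and SAT1 is highest with 5 µM at day 5.

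The difference between days was tested as such. At 1 µM the effect of olaparib differed between day 5 and day 1 for 4 members (29.8% of all genes), by 0.86 ± 0.03 for SMS, 0.66 ± 0.043 for SAT1, 0.19 ± 0.028 for AMD1 and 0.19 ± 0.04 for OAZ2. At 5 µM it differed for 6 members (54.9% of all genes), by 1.08 ± 0.03 for SMS, 1.25 ± 0.043 for SAT1, 0.37 ± 0.028 for AMD1, 0.31 ± 0.04 for OAZ2, -0.29 ± 0.026 for ODC1 and -0.23 ± 0.028 for OAZ1. SRM showed no difference past the threshold at either dose, with values of -0.0019 (95% interval -0.08 to 0.07) and -0.036 (-0.11 to 0.04). Over all settings tried these values ran from -0.05 to 0.01 and from -0.17 to -0.00. AMD1 turned direction, from -0.22 ± 0.02 at day 1 to 0.15 ± 0.02 at day 5 with 5 µM, and so did OAZ2, from -0.083 ± 0.028 to 0.22 ± 0.028. The day 1 OAZ2 value was lost as a call under scaling by total counts, at -0.03. OAZ1 fell by 0.27 ± 0.02 and AZIN1 by 0.12 ± 0.031 with 5 µM at day 5. The dose step from 1 to 5 µM moved 5 members at day 1 (28.8% of all genes) and all 10 at day 5 (53.6% of all genes), of which 7 or 8 passed when any 1 library of those groups was left out. SMOX was higher by 0.56, 0.45, 0.33 and 0.74 in the 4 comparisons with DMSO, and passed in all but the day 5 comparison at 1 µM (adjusted p = 0.101). Its call with 5 µM at day 1 was lost by DESeq2 at 0.44, and that with 1 µM without replicate 2 or 3 of the DMSO group at 0.48 and 0.49. The vehicle itself was not flat. DMSO at day 5 against day 1 moved 7 members (24.5% of all genes), with SAT1 higher by 0.49 ± 0.031, SMOX by 0.58 ± 0.18 and AZIN1 by 0.18 ± 0.031.

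Olaparib at 1 µM for 5 days was measured in both experiments, and the values can be set side by side. SMS rose by 0.73 in the panel and 0.81 in the time course, ODC1 changed by -0.19 and -0.22, OAZ2 by 0.20 and 0.16 and SAT1 by 0.37 and 0.67. SMOX (0.73 in the panel, 0.33 in the time course) passed the threshold in the panel only, and SRM (-0.02 and -0.13) and OAZ1 (-0.05 and -0.08) in the time course only. In a fit of all 39 libraries, chosen after the data were seen, the SAT1 effect was larger in the time course by 0.32 ± 0.047 (adjusted p = 3.09e-05), and 1 of the 10 members passed the threshold in that test (1.94% of all genes did). The SMS difference was 0.10 (95% interval 0.03 to 0.16, adjusted p = 0.101), and it passed under scaling by total counts at 0.10, by DESeq2 at 0.09 and without replicate C of the panel DMSO group at 0.12. The SAT1 level with DMSO at day 5 also differed, at 159 ± 6.03 CPM in the panel and 95.8 ± 2.56 CPM in the time course, and with olaparib it was 205 ± 4.31 and 152 ± 3.52 CPM. The experiments differ in their libraries as a whole, and any difference of culture or sequencing between them cannot be told apart from this.

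Ratios within a library carry no scaling between libraries. Per kb of exon, SMS to SRM was 1.81 ± 0.096 with DMSO in the panel (SD, n = 3). It was 1.34 ± 0.069 for abiraterone and 1.43 ± 0.036 for enzalutamide, against 3.05 ± 0.049 for olaparib and 3.04 ± 0.16 for talazoparib. The combinations were at 1.61 ± 0.13 and 1.58 ± 0.023. In the time course the ratio was between 1.29 and 1.61 in every library of the day 1 groups and of day 5 DMSO, 2.86 ± 0.079 with 1 µM at day 5 and 3.78 ± 0.072 with 5 µM. SAT1 to ODC1, the first catabolic gene against the first synthetic one, was 0.27 ± 0.017 with DMSO in the panel, 0.143 ± 0.0029 and 0.0904 ± 0.0027 with the ARPi and 0.396 ± 0.012 and 0.372 ± 0.01 with the PARPi, in the same order. With abiraterone plus olaparib it was 0.247 ± 0.017, its libraries overlapping those of DMSO, and with enzalutamide plus talazoparib 0.16 ± 0.0034. At day 1 of the time course it was 0.114 ± 0.0022 with DMSO, 0.13 ± 0.0043 with 1 µM and 0.182 ± 0.001 with 5 µM. At day 5 of the time course it went from 0.157 ± 0.0035 with DMSO to 0.29 ± 0.0056 and 0.735 ± 0.0055 with the 2 doses. In the panel the libraries of ARPi alone, DMSO and PARPi alone did not overlap for either ratio.

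**Figure D5:**
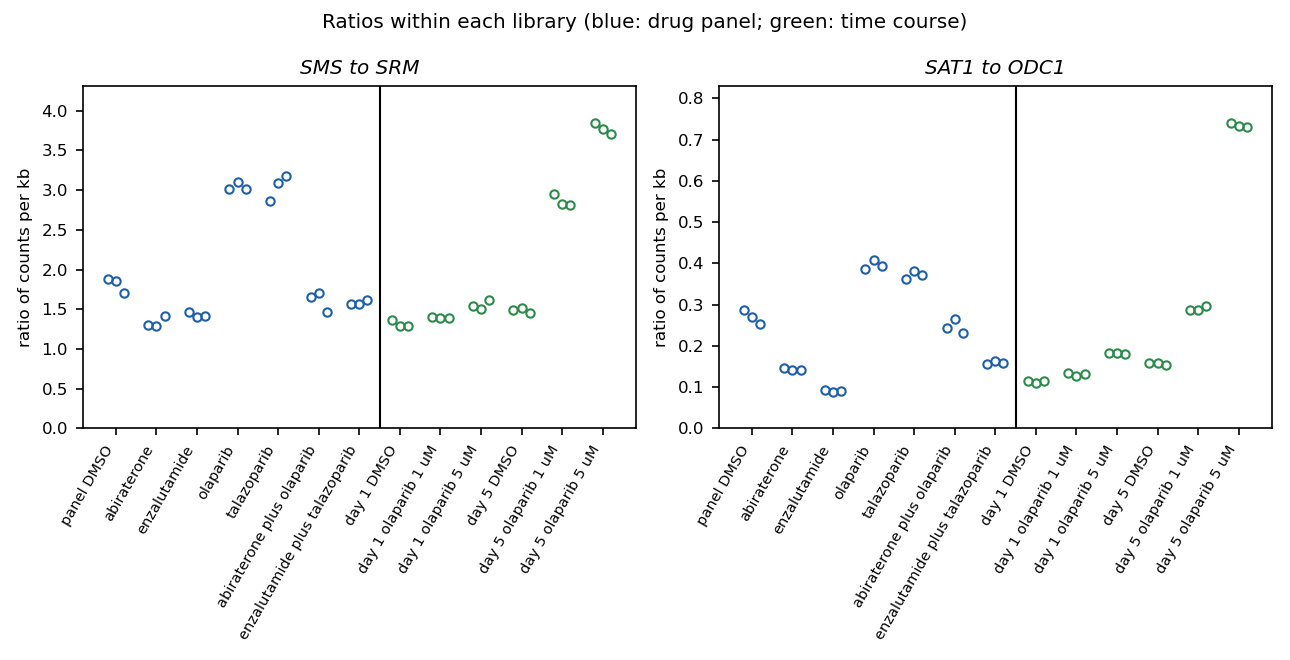
Ratio of counts per kb of exon within each library (open circles, vertical axes from 0), SMS to SRM on the left and SAT1 to ODC1 on the right, over the 7 panel groups (blue) and the 6 time course groups (green). The highest values are those of olaparib at 5 µM for 5 days, at 3.78 and 0.735 on average.

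The genes most like SAT1 and SMS across the panel were found by Pearson correlation of log2 CPM over the 21 libraries, among 9819 genes with a mean of at least 10 CPM. For SAT1 they included RHOU (r = 0.997), a small GTPase, and ENSG00000287499 (r = 0.996), which has no symbol. For SMS they were PRKCD (r = 0.997), a protein kinase C, MIPEP (r = 0.996), a mitochondrial peptidase, and BICD2 (r = 0.996), an adaptor of dynein. The points share 7 treatments, so the correlations describe the group pattern. KLK3, a known androgen target, stood at 1449 CPM on average with DMSO, 485 and 304 with abiraterone and enzalutamide, and 1637 and 1679 with the PARPi olaparib and talazoparib. TMPRSS2 stood at 250 CPM with DMSO, 45.9 and 36 with the ARPi, 414 and 425 with the PARPi and 55.5 and 50 with the combinations. At day 5 of the time course TMPRSS2 stood at 117, 234 and 383 CPM with DMSO, 1 and 5 µM olaparib, and CDKN1A, a p53 target, at 41.1, 226 and 730 CPM. KLK3 stood at 1245, 1494 and 1878 CPM in these groups. At day 1, where SMS stood at 235, 227 and 213 CPM, the same order of groups gave 83, 87.1 and 94.9 CPM for TMPRSS2, 1066, 964 and 872 for KLK3 and 54.6, 199 and 716 for CDKN1A. In the panel it stood at 54.1 CPM with DMSO, 94.9 and 61 with the ARPi, 244 and 213 with the PARPi and 351 and 267 with the combinations. The part of any of these in the levels of SAT1 and SMS was not tested.

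Around the 10 members, a list of 30 genes for precursor supply, methionine salvage, transport, the remaining antizyme family and acetylation genes and the hypusination of eIF5A, which uses spermidine, was followed. Of these 27 were tested in the panel and 28 in the time course, the rest having at most 10 counts in any library. Lower and higher members numbered 18 and 4 with abiraterone, 13 and 4 with olaparib and 20 and 3 with both, and 15 and 6 with enzalutamide, 13 and 5 with talazoparib and 19 and 4 with both. Of all genes tested, the shares lower and higher were 27.1% and 25.8%, 16.0% and 19.6%, 31.1% and 31.1%, 26.3% and 27.0%, 15.4% and 18.4%, and 31.3% and 31.2% in the same order. The median log2 fold change of the list was -0.27, -0.099, -0.33, -0.15, -0.044 and -0.31, beside medians of all genes within 0.02 of 0. In the time course 6 fell and 1 rose with 1 µM at day 1 (12 passed in all without replicate 2 of its DMSO group), 15 and 6 with 5 µM, 14 and 4 with 1 µM at day 5, and 18 and 8 with 5 µM, with medians of -0.06, -0.13, -0.071 and -0.22 beside medians of all genes within 0.015 of 0. Of all genes 9.52% fell and 6.30% rose in the first of these comparisons, 23.4% and 21.6% in the second, 22.9% and 23.4% in the third and 33.9% and 34.4% in the last. The list was written from textbook knowledge with earlier results of these data known.

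Among the precursor genes, the arginases, which make ornithine, were lower with each ARPi and higher with each PARPi in the panel. ARG1, at 5.17 CPM with DMSO, fell by 1.21 ± 0.14 with abiraterone and 1.95 ± 0.14 with enzalutamide, and rose by 1.11 ± 0.12 with olaparib and 1.14 ± 0.12 with talazoparib. ARG2, the mitochondrial arginase, was far more abundant, at 146, 133 and 122 CPM with DMSO. It changed by -0.99 ± 0.054, -0.93 ± 0.054, 0.54 ± 0.051 and 0.59 ± 0.051 with the same drugs. With olaparib at day 5 of the time course ARG1 rose by 1.38 and 1.41 and ARG2 by 0.58 and 0.39 at the 2 doses. At day 1 ARG2 rose by 0.16 ± 0.026 and 0.47 ± 0.026, and ARG1 did not pass the threshold, at -0.081 and 0.044. OAT, which turns ornithine into other amino acids, fell by 0.79 ± 0.051 with abiraterone plus olaparib.

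The arginine carrier SLC7A1 fell with every drug. It stood at 576, 573 and 576 CPM with DMSO, 341, 365 and 361 with abiraterone, 405, 396 and 399 with olaparib and 251, 244 and 264 with both. The log2 fold change was -0.69 ± 0.029, -0.52 ± 0.029 and -1.19 ± 0.03 respectively. With enzalutamide it was -0.25, with talazoparib -0.53 and with their combination -0.87, each ± 0.029. The methionine salvage genes, which recycle the by-product of the aminopropyl steps, had 4 of 5 tested members lower with each ARPi and each combination, and 3 lower and 1 higher with each PARPi. Of all genes, 26.3% to 31.3% were lower with the ARPi and combinations and 15.4% to 16.0% with the PARPi. The shares higher were 25.8% to 31.2% and 18.4% to 19.6% in the same order. APIP, of that route, fell by 0.66 ± 0.062 with abiraterone, 0.60 ± 0.061 with enzalutamide and 0.86 ± 0.064 and 0.85 ± 0.062 with the combinations. Of the 4 hypusination genes 3 were lower with abiraterone, with enzalutamide and with talazoparib, 2 with olaparib and 4 with each combination, beside the same shares of all genes. Of the 8 transport genes tested, 5 were lower and 1 higher with abiraterone, 3 and 3 with enzalutamide and 6 and 0 with each PARPi. With abiraterone and olaparib together 7 were lower and 0 higher, and with the other combination 5 and 1, again beside the shares above. Of the 3 genes of the antizyme family and acetylation, 2 were higher and 0 lower with each ARPi and each combination, and 1 was higher and 0 lower with each PARPi, beside 18.4% to 31.2% of all genes higher in these 6 comparisons. Among them SAT2, a relative of SAT1, was higher in each of the 6 treatments, by 0.26 to 0.53.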

How the data were processed

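RNA of 39 C4-2B libraries was sequenced, 3 in each of 13 groups. Per the study's methods, the authors trimmed reads with Trim Galore, aligned them to GRCh38 with STAR and quantified genes with Salmon in a stranded mRNA protocol. The deposited values are estimated counts per gene, held as whole numbers, and how they were rounded is not given in the sources used here. Symbols, positions and exon lengths came from a GENCODE release earlier than the one the authors used, which named 62666 of 63187 genes, and the 521 others held 0.12% of the counts.

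Each experiment was fitted by itself in edgeR 4.0.16 (R 4.3.3) by the quasi-likelihood test, with TMM scaling, genes with low counts removed by edgeR's group rule (18625 genes kept in the panel, 18502 in the time course) and Benjamini-Hochberg adjustment over all genes kept. The SE is the fold change divided by the root of the F value. Levels per kb use the union of annotated exons. Simulated data with 200 changed genes gave back 66% of them for abiraterone against DMSO, and 95.3% of those with at least 100 counts on average. In that run 132 changed and 16 unchanged genes were called. For olaparib 1 µM against DMSO at day 1, the shares were 73.5% and 93.7%, with 147 changed and 5 unchanged genes called. A simulated departure from additivity for abiraterone and olaparib gave back 56.5%, and a simulated day effect at 1 µM 67%. These 200 genes are far fewer than the genes called in the data, so the share of false calls there was not tested.

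Alternatives were other scalings, other filters, a replicate block, DESeq2 1.42.0, only the groups compared, a minimum fold and each library left out. Same-numbered libraries deviated together with correlations of -0.069 to 0.064 in the panel and -0.13 to 0.12 in the time course, so the numbers were not used as pairs. The 10 members and the list of 30 pathway genes were chosen with earlier results of these data known. The genes named from the list were, for each panel treatment, the 3 with the largest fold change past the threshold. They were taken from genes with 100 counts or more on average in the group where the gene was higher. SAT2 was named from the list outside this rule. The genes most like SAT1 and SMS, the members of widest range, were the 3 with the highest correlation among genes with a mean of at least 10 CPM. The fit of both experiments together was added after the data were seen. Some genes of the marker, likeness and context lists are not reported here.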

Additional observations from a re-analysis of the deposited data

Results flagged for a closer look

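Each result here is a difference between effects that passed edgeR's quasi-likelihood test of the difference itself, and its value is the log2 difference between the effects. A combination departed from the sum of its agents, for abiraterone and olaparib, by -0.16 for ODC1, -0.25 for SRM and -0.74 for SMS. For enzalutamide and talazoparib the departure was -0.21 for ODC1, 0.12 for AMD1, -0.68 for SMS and -0.12 for AZIN1. The effect of olaparib differed between day 5 and day 1, at 1 µM, by 0.19 for AMD1, 0.86 for SMS, 0.66 for SAT1 and 0.19 for OAZ2. At 5 µM it differed by -0.29 for ODC1, 0.37 for AMD1, 1.08 for SMS, 1.25 for SAT1, -0.23 for OAZ1 and 0.31 for OAZ2. The effect of olaparib at 1 µM for 5 days on SAT1 was larger in the time course than in the panel by 0.32.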

How the results depend on the processing

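Of 220 fold changes of the members, 214 kept their side of the threshold under RLE scaling, 197 under total count scaling and 208 with no filter on low counts. The number was 217 with at least 10 counts asked of every library of a group, 210 by DESeq2 and 209 with only the groups compared. Values that passed the threshold in either setting had also to keep their direction. A change of sign between values that did not pass was counted as kept. Leaving out single libraries kept 1527 of 1620. With the replicate block 209 of 210 kept theirs, and the other was AZIN1 in the departure for enzalutamide and talazoparib, at -0.12 with and without the block. Under total count scaling AMD1 (0.01) and AZIN1 (0.07) with abiraterone reversed. That scaling moved the median of all genes with abiraterone by 0.068, and its part in the reversals was not tested. With a minimum log2 fold change of 0.5, which by construction removes small changes, members past the threshold against DMSO numbered 5 (abiraterone), 4 (enzalutamide), 2 (olaparib), 2 (talazoparib), 5 (abiraterone plus olaparib) and 5 (enzalutamide plus talazoparib) in the panel. In the time course they numbered 1 and 0 at day 1 and 2 and 4 at day 5 with 1 and 5 µM. They numbered 1 for enzalutamide against abiraterone, 0 for talazoparib against olaparib, 0 for each combination against its ARPi, 1 for each departure from additivity, 0 and 2 for the dose step at day 1 and day 5, 1 for DMSO between days, 2 and 2 for the day effects and 0 between experiments. The pathway list then had 9, 6, 3, 4, 8 and 11 genes past it in the panel, and 0, 1, 5 and 12 in the time course. The share of all genes past this minimum fold was not counted, so these numbers cannot be set against a background. With only the groups compared abiraterone gave 5 members. Talazoparib against olaparib gave 0 with no filter and 2 by DESeq2, the departure for enzalutamide and talazoparib 2 with no filter, and the comparison between experiments 2 under total count scaling and 2 by DESeq2. The pathway list had 11 genes past the threshold with 1 µM at day 1 under total count scaling. Without 1 library, the counts of members ran from 5 to 6 for abiraterone, 1 to 2 for talazoparib against olaparib (2 without talazoparib replicate A), 2 to 5 for the departure for enzalutamide and talazoparib and 1 to 2 between experiments (2 without panel DMSO replicate C), and the pathway list at day 1 with 1 µM from 7 to 12. Total count scaling moved the median of all genes by up to -0.131, for the day effect at 5 µM. It moved the share of higher among all called genes from 48.7% to 60.0% with abiraterone, 55.1% to 43.0% with olaparib, 54.5% to 40.0% with talazoparib and 42.2% to 56.3% for the departure for enzalutamide and talazoparib. In the time course that share went from 39.8% to 59.9% and 48.0% to 60.3% with 1 and 5 µM at day 1, 44.6% to 55.0% and 49.6% to 38.7% for the dose step at day 1 and day 5, 45.3% to 57.7% for DMSO between days, and 52.3% to 37.4% and 49.6% to 33.2% for the day effects at 1 and 5 µM. Depth limits SMOX and PAOX, with 42 to 156 and 40 to 91 counts per library.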
